A study of Mus musculus with 10 samples.

Results

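The early growth response (Egr) transcription factors comprised 4 genes, Egr1, Egr2, Egr3 and Egr4, found by their gene names among the 52636 genes of the deposited table. All 4 passed the low-count filter that left 18455 genes for testing. The 4 genes were selected from results of the same libraries, because their levels differed between cKO or Hetero and Loxp cortex. Their differences from Loxp are therefore given below as a description, with no p-value. How many of them meet a call rule is stated only beside the share of all genes that do.

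RNA was sequenced from S1BF, the barrel field of somatosensory cortex, which receives input from the whiskers, of C57BL/6 mice at postnatal day 17. The cKO group held 4 libraries of Nex-cre mice labelled as conditional knockouts of the retinoid X receptor gene Rxra, and the Hetero group held 2 libraries of Nex-cre mice labelled cKO-Het. The Loxp group held 4 libraries of mice with the floxed allele Rxratm1Krc/J and no Cre in their label. The floxed allele was shared by all 3 groups, and Nex-cre was carried by cKO and Hetero only. In every contrast with Loxp, deletion of Rxra and the presence of Nex-cre therefore cannot be told apart. Nex is another name of Neurod6, and this driver places Cre in excitatory neurons of the cortex, so that Rxra stays intact in the other cells of the tissue. The labels do not say whether each library came from 1 animal, so the spread between libraries may be partly technical. In whole tissue, fewer cells of a type and less RNA per cell cannot be told apart.

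Egr proteins are zinc-finger transcription factors that bind GC-rich sites in DNA. Their genes are immediate early genes: in neurons, calcium entry through glutamate receptors and channels activates the ERK kinases and CREB, and serum response factor with its Elk partners then switches them on within minutes. Egr1, also called Zif268, is needed for lasting synaptic plasticity and memory, and in the barrel cortex its level follows whisker use. The co-repressors Nab1 and Nab2 bind Egr proteins and limit their activity, and the ERK phosphatases limit the signal that induces them.

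Promoter windows of RefSeq, on GRCm38.p6, matched 2 of the 4 genes by symbol, Egr2 and Egr4. They are shown as the windows at hand for the gene with the widest gap between Loxp and both Nex-cre groups, Egr2, and the gene with the smallest gap between cKO and Loxp, Egr4. Each line gives the 250 bases before a transcription start, 5′ to 3′ on the strand of the gene. Egr2 had 5 windows, and the one printed lies before the start at base 67537869 of chromosome 10, at chr10:67537619-67537868 on the plus strand. The Egr4 window lies at chr6:85513590-85513839 on the minus strand. Capitals mark matches to the CArG box, the motif of serum response factor, and to TGACG, the core of the cyclic AMP response element, on either strand (CGTCA on the other strand).
Egr2: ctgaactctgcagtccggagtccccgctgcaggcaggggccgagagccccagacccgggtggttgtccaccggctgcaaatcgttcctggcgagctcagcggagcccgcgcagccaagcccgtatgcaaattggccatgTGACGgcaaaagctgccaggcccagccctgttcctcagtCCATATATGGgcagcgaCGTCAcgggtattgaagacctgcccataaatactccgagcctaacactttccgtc
Egr4: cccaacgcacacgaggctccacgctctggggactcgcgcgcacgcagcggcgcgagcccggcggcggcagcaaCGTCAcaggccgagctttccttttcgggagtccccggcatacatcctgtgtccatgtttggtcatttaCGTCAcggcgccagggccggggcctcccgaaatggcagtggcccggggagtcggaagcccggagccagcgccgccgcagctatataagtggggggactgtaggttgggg
The Egr2 window held 1 CArG box, CCATATATGG, from base -72 to base -63 relative to the start, and TGACG matches at bases -111 to -107 and -55 to -51. A CArG box was found in 4 of the 5 Egr2 windows, but 3 of these overlap and share the box CCATATATGG, so the windows held only 2 distinct boxes. The printed window is 1 of these 3, and TGACG matches were found in no other Egr2 window. The window before the start at base 67535499 held neither motif. The Egr4 window held TGACG matches at bases -177 to -173 and -109 to -105 and no CArG box by the letters searched. Among all 32851 promoter windows of the table, 1.47% held a CArG box and 17.8% a TGACG match. Neither window held the full element TGACGTCA, found in 1.55% of all windows, or the Egr site GCGNGGGCG, found in 4.7%. A match is a description of these letters and not a binding site, and the motifs do not overlap one another in these windows.

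Total counts per library ran between 19332990 and 26086337, and no library held the counts of another. Rxra, the targeted gene, had 29.0 to 32.4 CPM (counts scaled to library size with TMM normalisation) in cKO, 23.2 to 26.4 CPM in Hetero and 21.6 to 31.8 CPM in Loxp libraries. Set against Loxp, Rxra gave 0.21 in cKO (SE 0.11, adjusted p = 1) and -0.10 in Hetero (SE 0.14, adjusted p = 1) as log2 fold changes, by edgeR's quasi-likelihood test. In cKO the value was 0.12 without Loxp 2 and 0.31 without Loxp 4, and in Hetero it was -0.19 without Hetero 2 and 0.01 without Loxp 4. A count over the whole gene in whole tissue does not check a deletion of some exons in some cells. Neurod6, the Cre locus, had 22.9 to 38.1 CPM in cKO, 34.0 to 34.4 CPM in Hetero and 34.9 to 66.7 CPM in Loxp libraries. The library labelled Loxp 4 had the 34.9 CPM, within the range of the Nex-cre groups, and the other 3 Loxp libraries had 55.7 CPM or more. All 8 excitatory cortical neuron markers were detected, with summed levels of 3111 to 3359 CPM in cKO, 3207 to 3393 CPM in Hetero and 2857 to 3315 CPM in Loxp libraries. Choroid plexus markers (5 of 6 detected) summed to 734 CPM in Hetero 2, against 2.87 to 22.4 CPM in the other 9 libraries. Striatal markers (6 of 6) summed to 218 CPM in cKO 2 and 229 CPM in Loxp 2, against 415 to 906 CPM elsewhere. The Y-linked gene Ddx3y exceeded Xist in 2 of 4 cKO, 0 of 2 Hetero and 1 of 4 Loxp libraries. The part of these differences in the results on the Egr genes was not tested, apart from the values given without single libraries.

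Per unit length, Egr1 was the most abundant of the 4 genes and Egr2 the least. In the authors' FPKM (fragments per kilobase of gene, scaled to depth), Egr1 averaged 105 ± 24.6 in cKO, 94.7 ± 9.11 in Hetero and 142 ± 21.95 in Loxp libraries (SD, n = 4, 2 and 4). Egr4 averaged 61.3 ± 11.6 FPKM in cKO, 54.6 ± 5.45 in Hetero and 71.8 ± 18.7 in Loxp libraries. Egr3 averaged 42.3 ± 8.33 FPKM in cKO, 43.6 ± 3.90 in Hetero and 60.2 ± 8.93 in Loxp libraries. Egr2 stood apart at 4.53 ± 0.970 FPKM in cKO, 3.44 ± 0.961 in Hetero and 9.06 ± 2.67 in Loxp libraries. Ranked by mean FPKM in Loxp cortex among the 18455 genes, Egr1 was 234th, Egr4 602nd, Egr3 749th and Egr2 5310th. Egr1 exceeded Egr4 in 10 of 10 libraries, by a ratio of 1.83, and Egr3 exceeded Egr2 in 10 of 10 libraries, by a ratio of 8.81. Egr4 exceeded Egr3 in 9 of 10 libraries by a log2 ratio of only 0.37 ± 0.32 (SD, n = 10), and Loxp 2 was the exception. The order of Egr4 and Egr3 was thus within about the spread between libraries, and the other steps of the order were larger than it.

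**Figure D1:**
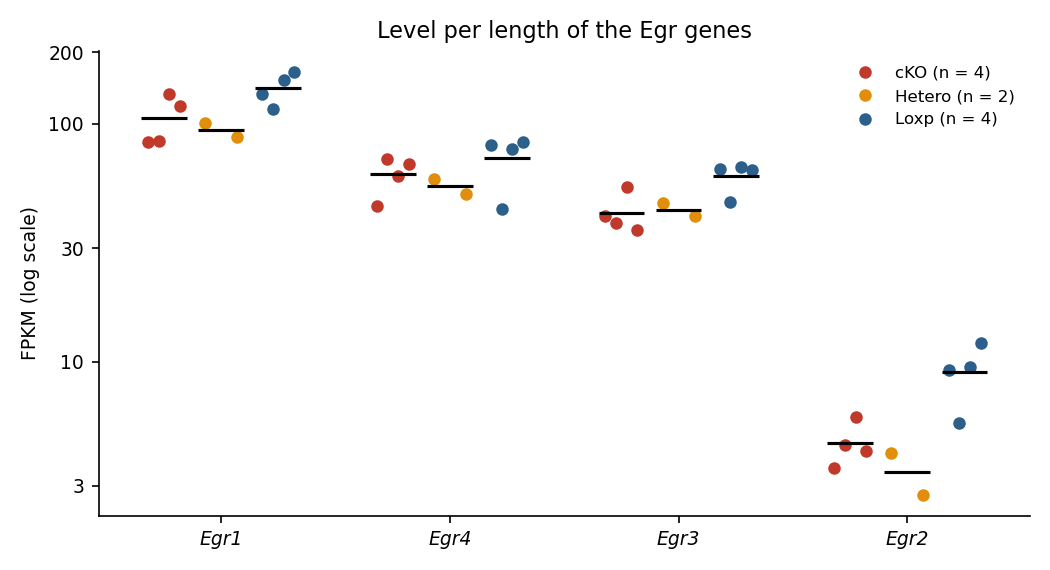
FPKM of Egr1, Egr4, Egr3 and Egr2 (log axis) in each library of the cKO, Hetero and Loxp groups; points are libraries and lines are group means. Egr1 lies highest and Egr2 lies below the other genes in every library, with a Loxp mean of 9.06 FPKM, and Egr4 and Egr3 overlap.

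Egr2, known as Krox20 from its part in hindbrain segments and Schwann cell myelin, had the lowest level and the widest gap between groups. It is annotated at chr10:67535475-67542188 (plus strand, mm10), with 5 exon blocks and no other annotated gene overlapping it. Its normalised counts were 12.2, 15.3, 20.1 and 14.3 CPM in cKO 1 to 4, 14.1 and 9.44 CPM in Hetero 1 and 2, and 31.5, 18.9, 32.6 and 40.8 CPM in Loxp 1 to 4. These values rest on 309 to 515 reads per library in cKO, 210 to 275 in Hetero and 396 to 1024 in Loxp. Both Hetero libraries and 3 of the 4 cKO libraries lay below all Loxp libraries, and only cKO 3 overlapped the Loxp range, through Loxp 2. Group means were 15.5 ± 3.32 CPM in cKO, 11.7 ± 3.26 CPM in Hetero and 31.0 ± 9.04 CPM in Loxp (SD, n = 4, 2 and 4). The log2 fold change was -1.003 (SE 0.21) in cKO against Loxp and -1.40 (SE 0.28) in Hetero against Loxp, so that the fitted levels were 49.9% and 37.8% of that in Loxp.

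Egr1, the best-known member, had 379, 384, 599.6 and 537 CPM in cKO 1 to 4, 455 and 398 CPM in Hetero 1 and 2, and 600.3, 522, 690 and 743 CPM in Loxp 1 to 4. Both Hetero libraries and 2 of the 4 cKO libraries, cKO 1 and cKO 2, lay below all Loxp libraries, while cKO 3 and cKO 4 lay within the Loxp range. Group means were 475 ± 111 CPM in cKO, 427 ± 40.2 CPM in Hetero and 639 ± 97.6 CPM in Loxp (SD, n = 4, 2 and 4). Egr1 had a log2 fold change of -0.43 (SE 0.15) in cKO against Loxp and -0.58 (SE 0.19) in Hetero against Loxp.

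Egr3, needed in mice for muscle spindle development and a regulator of the Arc gene in neurons, had 181, 169.8, 241 and 158 CPM in cKO 1 to 4, 205 and 181 CPM in Hetero 1 and 2, and 286, 208, 293 and 282 CPM in Loxp 1 to 4. All cKO libraries but cKO 3, and both Hetero libraries, lay below the lowest Loxp library, Loxp 2. The other 3 Loxp libraries lay between 282 and 293 CPM. Group means were 188 ± 36.9 CPM in cKO, 193 ± 16.9 CPM in Hetero and 267 ± 39.5 CPM in Loxp (SD, n = 4, 2 and 4), with a log2 fold change of -0.51 (SE 0.14) in cKO and -0.47 (SE 0.17) in Hetero, each against Loxp. Egr3 is annotated at chr14:70077203-70082614 (plus strand) with 4 exon blocks.

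Egr4, known in mice for its part in male germ cell maturation, showed the smallest gap between cKO and Loxp. It had 97.6, 154, 131 and 147 CPM in cKO 1 to 4, 126 and 109.7 CPM in Hetero 1 and 2, and 176, 95.01, 169.7 and 179.8 CPM in Loxp 1 to 4. Loxp 2 had the lowest value of all 10 libraries, and the other 3 Loxp libraries had the highest 3, so the groups overlapped through Loxp 2 alone. Group means were 132 ± 25.2 CPM in cKO, 118 ± 11.5 CPM in Hetero and 155 ± 40.3 CPM in Loxp (SD, n = 4, 2 and 4). On the log2 scale the fold change was -0.23 (SE 0.18) in cKO against Loxp and -0.40 (SE 0.23) in Hetero against Loxp. Egr4 is annotated at chr6:85511121-85513589 (minus strand) with 2 exon blocks.

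**Figure D2:**
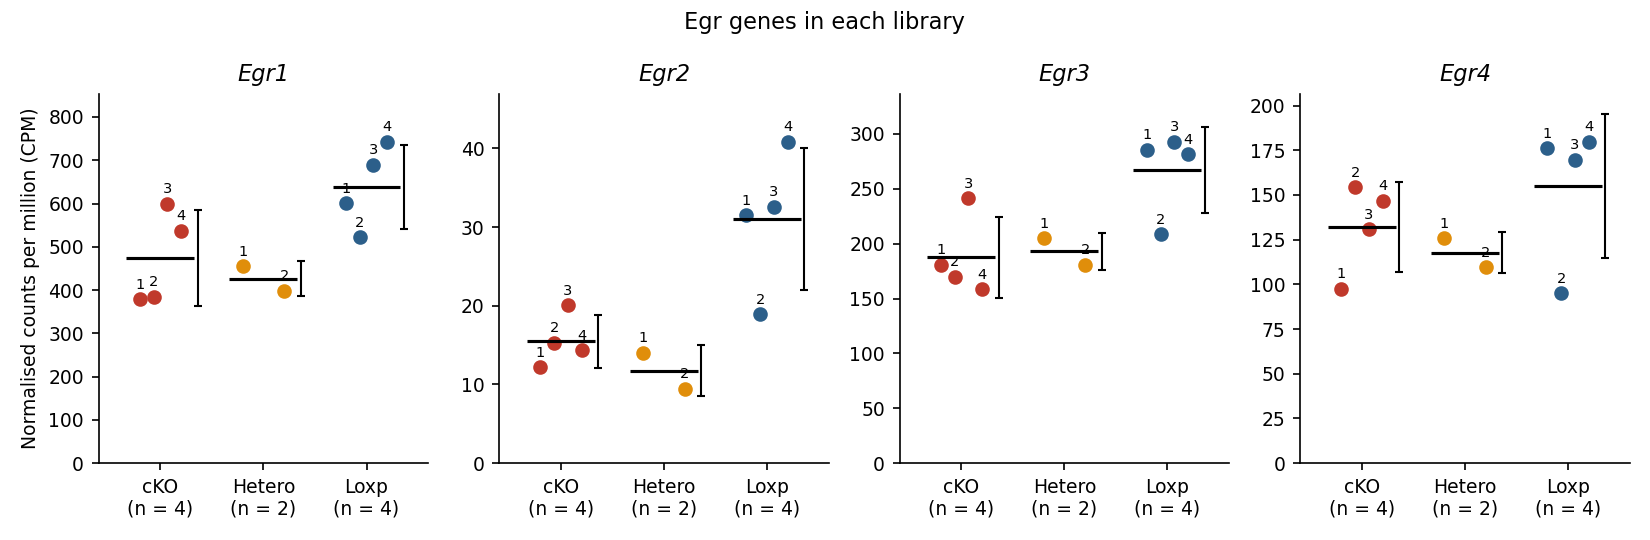
Normalised counts (CPM) of the 4 Egr genes in each library, with the replicate number above each point; horizontal lines are group means and bars beside them are ± SD (n = 4 cKO, 2 Hetero, 4 Loxp). Loxp 2 is the lowest Loxp library in every panel, at 18.9 CPM for Egr2 and 95.01 CPM for Egr4.

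Counted against all genes, 0 of the 4 Egr genes had an adjusted p under 0.05 by edgeR in cKO against Loxp, where 0% of the 18455 genes did. Egr1, Egr2 and Egr3 were lower at an unadjusted p under 0.05, as were 1.06% of genes, and 0 of the 4 had groups that did not overlap, against 0.721% of genes. DESeq2 called 1 of the 4 lower, Egr2, among 2 genes in all (0.0108% of those tested), and the other was Neurod6. The authors' deposited table called 0 of the 4 lower in cKO, and 0% of 29220 genes. In Hetero against Loxp, edgeR called 0 of the 4 and 0% of genes; Egr1, Egr2 and Egr3 were lower at an unadjusted p under 0.05, as were 1.25% of genes. The same 3 genes were lower in both Hetero libraries than in every Loxp library, as were 5.77% of genes. DESeq2 called Egr2 lower in Hetero, with 0.0379% of genes lower, and the authors' deposited table called Egr1 lower, with 0.0394% of 27904 genes lower. The 4 genes were chosen on these contrasts, so nothing is read from their share. The cKO and Hetero comparisons share the 4 Loxp libraries and are not independent of each other.

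The Loxp libraries were uneven, and Loxp 2 was the lowest Loxp library for all 4 Egr genes. Without Loxp 2, all 4 genes were lower in every cKO library than in the other 3 Loxp libraries, as were 1.78% of genes, although for Egr1 the gap was only between 599.6 CPM in cKO 3 and 600.3 CPM in Loxp 1. Without Loxp 2, the log2 fold change of Egr4 in cKO against Loxp was -0.41, and without cKO 1 it was -0.11. Leaving out cKO 3, the highest cKO library for Egr1, Egr2 and Egr3, left Egr2 and Egr3 without overlap, as were 1.91% of genes. Leaving out any other single library of the 2 groups left 0 of the 4 genes without overlap. Leaving out a library that is extreme for a gene can only lessen the overlap of that gene. The shares of 1.78% and 1.91% leave out the same library for all genes, extreme or not. They are not a like background, so nothing is read from these counts. Loxp 4, the library with Neurod6 at the level of the Nex-cre groups, had the highest value of Egr1, Egr2 and Egr4 among all 10 libraries.

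Taken by replicate number, the difference cKO minus Loxp in log2 CPM of Egr1 was -0.66, -0.44, -0.20 and -0.47 for numbers 1 to 4. For Egr2 it was -1.37, -0.30, -0.70 and -1.50, and for Egr3 it was -0.66, -0.29, -0.28 and -0.83. All of these were negative. For Egr4 the difference was -0.85, 0.70, -0.38 and -0.29, and number 2, with the low Loxp 2, was the exception. The difference Hetero minus Loxp for numbers 1 and 2 was -0.40 and -0.39 for Egr1, -1.16 and -0.998 for Egr2, -0.48 and -0.20 for Egr3, and -0.48 and 0.21 for Egr4. Nothing in the labels says that equal numbers share a litter or a day.

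The comparison of cKO with Hetero, which both carry Nex-cre, was not itself used to choose the genes, and it was tested. Its libraries were among those used for the choice, so these tests are not independent of that choice. In cKO against Hetero, 0 of the 4 Egr genes were called by edgeR, where 0% of genes were. At an unadjusted p under 0.05, 0 of the 4 were lower, against 0.764% of genes. In the higher direction 0 of the 4 were too, against 180 of 18455 genes. No Egr gene was lower in every cKO library than in both Hetero libraries, against 4.54% of genes. Above both Hetero libraries lay 2, 3, 1 and 3 of the 4 cKO libraries for Egr1 to Egr4. The share of all genes higher in every cKO library was not counted. The log2 fold change in cKO against Hetero was 0.16 for Egr1 (95% interval -0.25 to 0.56, adjusted p = 1) and 0.40 for Egr2 (-0.18 to 0.99, adjusted p = 1). It was -0.04 for Egr3 (-0.40 to 0.32, adjusted p = 1) and 0.17 for Egr4 (-0.32 to 0.66, adjusted p = 1), by edgeR's quasi-likelihood test with Benjamini-Hochberg adjustment. Without Hetero 2 the value of Egr2 was 0.14, and without Hetero 1 it was 0.71; for Egr1 it ranged from 0.02 without cKO 3 to 0.26 without Hetero 1. With 2 Hetero libraries these intervals are wide, and they leave differences of either direction possible. Hetero 2, the library with choroid plexus markers, had less of all 4 Egr genes than Hetero 1, and without it the log2 fold change of Egr2 in Hetero against Loxp was -1.14.

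**Figure D3:**
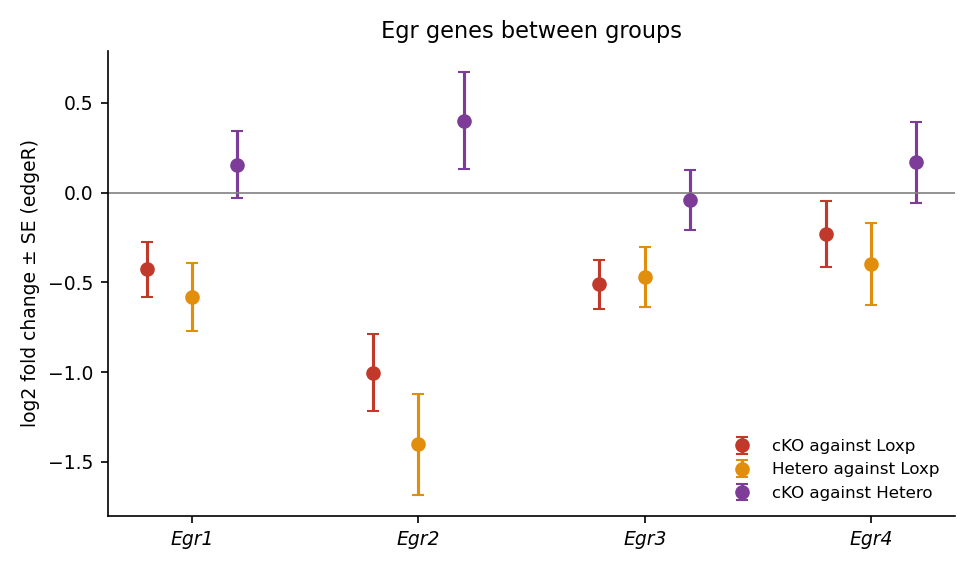
Log2 fold changes (edgeR) of the 4 Egr genes between cKO and Loxp (left), Hetero and Loxp (middle) and cKO and Hetero (right), with the group named first on top of the ratio; bars are ± SE. Egr2 has the values farthest below 0, -1.003 and -1.40, and in cKO against Hetero the values run between -0.04 and 0.40.

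Among the Egr transcripts, the share of Egr2 was lower in both Nex-cre groups than in Loxp, a description that rests on the same differences as above. Of the summed FPKM of the 4 genes, Egr2 made up 2.12 ± 0.210% in cKO, 1.74 ± 0.318% in Hetero and 3.15 ± 0.444% in Loxp libraries (SD, n = 4, 2 and 4). The highest share of Egr2 was 2.31% in cKO and 1.96% in Hetero, below the lowest Loxp share of 2.61%. Egr1 made up 49.0 ± 4.59% in cKO, 48.2 ± 0.132% in Hetero and 50.4 ± 3.44% in Loxp libraries, and these groups overlapped. Egr3 held 19.97 ± 3.32% in cKO, 22.2 ± 0.210% in Hetero and 21.4 ± 1.24% in Loxp libraries. Egr4 held 28.9 ± 5.25% in cKO, 27.8 ± 0.024% in Hetero and 25.1 ± 3.15% in Loxp libraries. The summed FPKM was 213 ± 34.6 in cKO, 196 ± 19.4 in Hetero and 283 ± 49.6 in Loxp libraries.

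Within groups, the Egr genes varied more between libraries than most genes of similar level. The pooled standard deviation of log2 CPM within groups was 0.27 for Egr1, larger than that of 94.3% of 609 genes within 1 log2 unit of its mean level. It was 0.39 for Egr2, larger than that of 96.6% of 4705 such genes, and 0.24 for Egr3, larger than that of 91.5% of 1786 such genes. For Egr4 it was 0.35, larger than that of 98.1% of 2782 such genes. The choice of the genes used differences between groups, and this spread within groups is a description.

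The genes nearest to each Egr gene in profile were found by the root mean square (RMS) difference of log2 CPM over the 10 libraries, each gene centred on its own mean, among 13397 genes. For Egr1 they were Dusp6, a phosphatase that inactivates ERK (0.12), Shmt1, an enzyme of folate metabolism (0.127), and Plk3, a polo-like kinase (0.138), where a flat profile lies at 0.332. For Egr2 they were Fos, an AP-1 subunit (0.292), Arc, a synaptic immediate early protein (0.323), and Sik1, a salt-inducible kinase (0.342), with a flat profile at 0.649. For Egr3 they were Tiparp, an ADP-ribosyltransferase (0.117), Plk3 (0.134) and Bhlhe40, a transcriptional repressor (0.174), with a flat profile at 0.314. For Egr4 they were Klf4, a zinc-finger factor (0.147), Nab2 (0.158) and Wdr53, a WD-repeat protein (0.189), with a flat profile at 0.325. Between Egr genes the smallest RMS difference was 0.196, between Egr1 and Egr3, and the largest was 0.471, between Egr2 and Egr4. These distances mix differences between groups with those within groups: with each gene centred within its group, 1 of these 12 neighbours, Klf4, was again among the nearest 3.

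**Figure D4:**
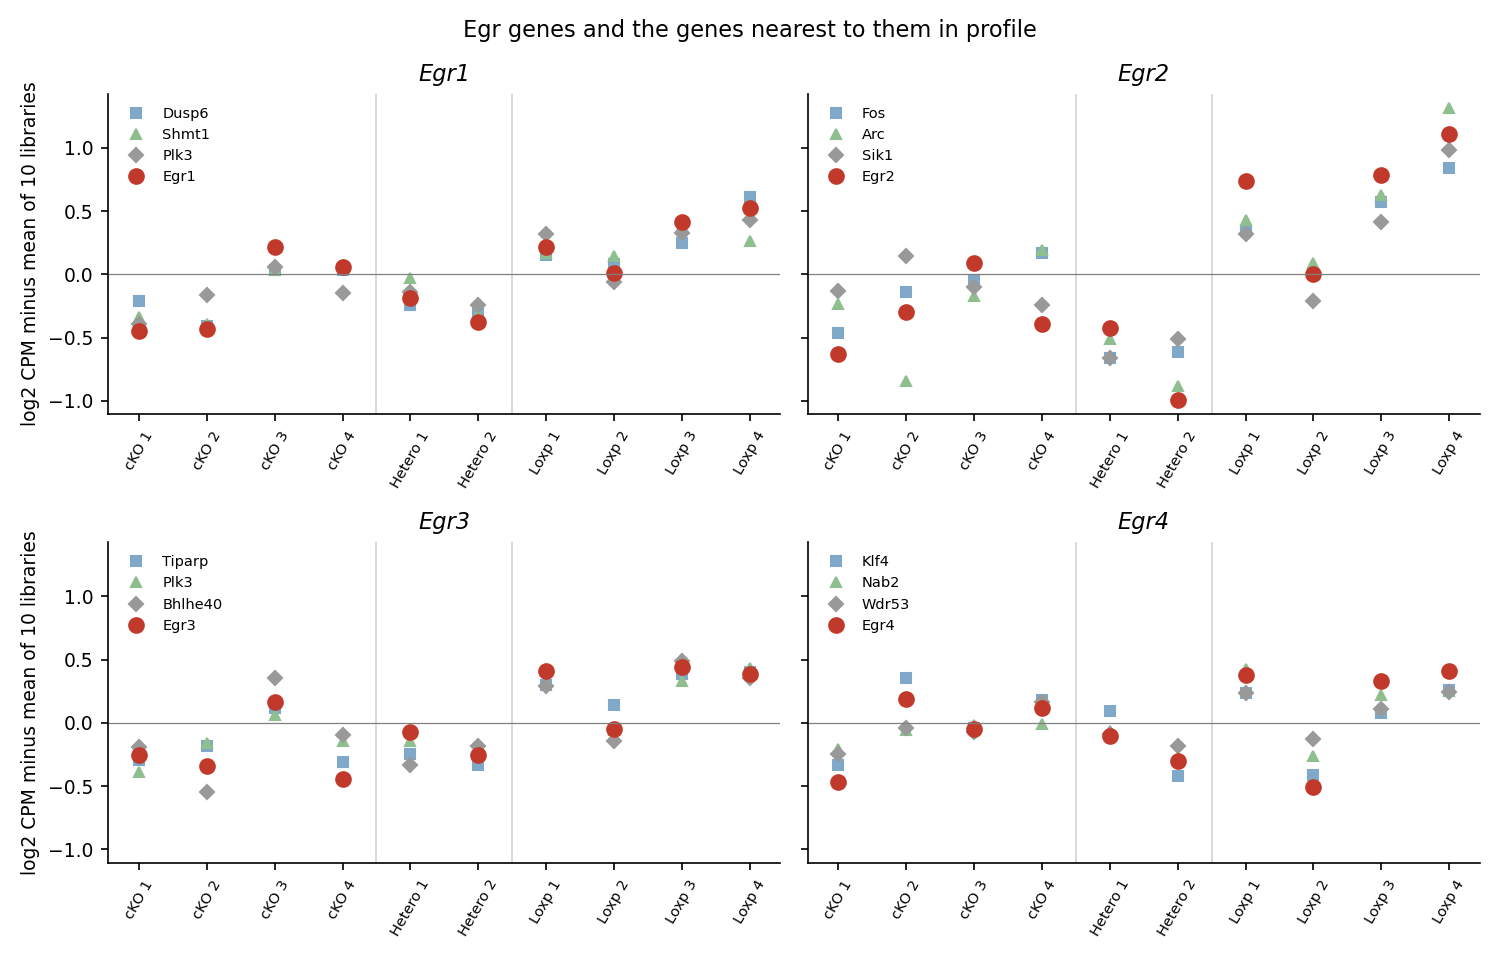
Log2 CPM minus the mean of the 10 libraries for each Egr gene (red circles) and its 3 nearest genes (other symbols), by library of cKO, Hetero and Loxp. Egr1, Egr2 and Egr3 lie above 0 in Loxp 1, 3 and 4 and in cKO 3, and Egr1 also in cKO 4. Loxp 2 lies near 0 for Egr1 and Egr2. In the Egr4 panel Klf4 and Nab2 are low in Loxp 2 as Egr4 is, at 95.01 CPM.

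Of the partners and co-repressors of Egr proteins, 0 of 7 were called by edgeR in cKO or Hetero against Loxp, and 3 of 7 had lower fitted levels in cKO (median log2 fold change 0.04) and 4 of 7 in Hetero (median -0.03). Nab2, an Egr co-repressor that Egr factors themselves induce, had 32.8, 36.3, 37.3 and 37.7 CPM in cKO 1 to 4, 36.2 and 31.1 CPM in Hetero 1 and 2, and 50.9, 31.5, 43.9 and 45.0 CPM in Loxp 1 to 4. Loxp 2 again lay below the other 3 Loxp libraries, and the groups overlapped through it. Against Loxp, Nab2 had log2 fold changes of -0.25 in cKO (SE 0.12, adjusted p = 1) and -0.35 in Hetero (SE 0.15, adjusted p = 1), by edgeR. Without Loxp 1 the cKO value was -0.16. Nab2 overlaps 3 other annotated genes, and without the strand setting of the counting its reads are uncertain. Nab1, the other co-repressor, averaged 24.4 ± 2.25 CPM in cKO, 22.5 ± 1.63 CPM in Hetero and 24.8 ± 3.19 CPM in Loxp libraries (SD, n = 4, 2 and 4), with a log2 fold change of -0.02 (SE 0.11) in cKO against Loxp. Hcfc1, Chd3 and Chd4, chromatin proteins of this list, had log2 fold changes of 0.10, 0.10 and -0.05 in cKO against Loxp.

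Among genes reported as targets of Egr factors, 0 of 15 tested were called in cKO or Hetero against Loxp, 10 of 15 had lower fitted levels in cKO (median -0.02) and 9 of 15 in Hetero (median -0.02). Over all genes, 49.9% had lower fitted levels in cKO and 51.8% in Hetero, with medians of 0.00 and -0.01. Without Loxp 3, 7 of the 15 were lower in cKO (median 0.008) and 6 of 15 in Hetero (median 0.02). Without Loxp 1, 10 of 15 were lower in cKO and 11 of 15 in Hetero. The members named here had the smallest p in cKO against Loxp by edgeR, and 5 of the 15 had higher fitted levels in that comparison. Arc, which organises the removal of AMPA receptors from synapses and is a target of Egr1 and Egr3, had 284, 187, 297 and 382 CPM in cKO 1 to 4, 235 and 181 CPM in Hetero 1 and 2, and 450.2, 356, 519 and 833 CPM in Loxp 1 to 4. Both Hetero libraries and 3 of 4 cKO libraries lay below all Loxp libraries, and cKO 4 overlapped Loxp 2. The log2 fold change of Arc was -0.91 (SE 0.24, adjusted p = 1) in cKO and -1.37 (SE 0.31, adjusted p = 0.733) in Hetero, each against Loxp, by edgeR. Both values rest in part on Loxp 4, whose 833 CPM stood above the 356 to 519 CPM of the other Loxp libraries. Mbp and Pmp22, myelin genes that Egr2 controls in Schwann cells, had log2 fold changes of -0.19 (SE 0.12) and -0.16 (SE 0.10) in cKO against Loxp. Without cKO 2 these were -0.13 and -0.087, and without Loxp 4 that of Mbp was -0.12. Oligodendrocyte markers, Mbp among them, summed to 5955 to 9827 CPM in cKO, 6408 to 9325 CPM in Hetero and 8392 to 10573 CPM in Loxp libraries, and their part in the Mbp value was not tested.

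Upstream of the Egr genes, kinases and factors gave 0 of 22 calls in cKO or Hetero, with lower fitted levels for 9 of 22 in cKO (median 0.02) and 10 of 22 in Hetero (median 0.01) against Loxp. Elk3, a partner of serum response factor, had a log2 fold change of -0.34 (SE 0.12), and Mapk3, which encodes ERK1, one of 0.36 (SE 0.21), in cKO against Loxp. Mkl1, a coactivator of serum response factor, had 0.14 (SE 0.09), and Rps6ka2, a kinase downstream of ERK, 0.21 (SE 0.15). Mapk3 and Rps6ka2 rested on cKO 2, without which they were at 0.03 and 0.01, and Mkl1 was at 0.091 without Loxp 2. The adjusted p was 1 for each of these genes by edgeR. Receptors and channels gave 0 of 9 calls, with lower fitted levels for 4 of 9 in cKO and 5 of 9 in Hetero. Bdnf, the ligand of the receptor encoded by Ntrk2, averaged 21.5 ± 3.97 CPM in cKO, 25.6 ± 1.75 CPM in Hetero and 29.6 ± 4.75 CPM in Loxp libraries, and its log2 fold change was -0.46 (SE 0.14, adjusted p = 1) in cKO against Loxp by edgeR. Ntrk2 itself had 0.10 (SE 0.08), the calcium channel gene Cacna1c 0.16 (SE 0.11) and the glutamate receptor gene Grm5 0.09 (SE 0.08) in the same comparison. Without Loxp 1, Ntrk2 was at 0.05 and Cacna1c at 0.07.

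Other immediate early transcription factors had lower fitted levels in 13 of 16 cases in cKO and in 15 of 16 in Hetero against Loxp, with median log2 fold changes of -0.39 and -0.61, and 0 of 16 were called by edgeR in either comparison. At an unadjusted p under 0.05, 6 of the 16 were lower in cKO, where 1.06% of all genes were, and 7 in Hetero, where 1.25% were. Without Loxp 4, the library with low Neurod6, 11 of 16 had lower fitted levels in cKO (median -0.18) and 3 were lower at an unadjusted p under 0.05, as were 1.51% of genes. Fos had 35.2, 44.0, 47.2 and 54.5 CPM in cKO 1 to 4, 30.7 and 31.7 CPM in Hetero 1 and 2, and 61.7, 48.7, 72.1 and 86.9 CPM in Loxp 1 to 4. Only cKO 4 overlapped the Loxp libraries, through Loxp 2. By edgeR, Fos had log2 fold changes of -0.58 (SE 0.16, adjusted p = 1) in cKO and -1.11 (SE 0.21, adjusted p = 0.599) in Hetero, each against Loxp. Ier2, a nuclear immediate early protein, Fosl2, another AP-1 subunit, and Nr4a1, an orphan nuclear receptor, had log2 fold changes of -0.62, -0.44 and -0.66 in cKO, and -0.91, -0.64 and -1.04 in Hetero, each against Loxp. Ier2 and Nr4a1 rested in part on Loxp 4, without which their cKO values were -0.34 and -0.33. In cKO against Hetero, 15 of the 16 had higher fitted levels (median 0.32), where 9698 of 18455 genes did (median 0.008). At an unadjusted p under 0.05 by edgeR, 3 of the 16 were higher, as were 180 of 18455 genes, and 0 of 16 were called. These values rest on 2 Hetero libraries.

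The phosphatases and Sprouty genes that limit ERK signalling had lower fitted levels in 6 of 6 cases in both comparisons with Loxp, with medians of -0.38 in cKO and -0.49 in Hetero, and 0 of 6 were called. Dusp6 had 89.4, 77.9, 106 and 105.9 CPM in cKO 1 to 4, 87.3 and 83.9 CPM in Hetero 1 and 2, and 115, 109.2, 122 and 158 CPM in Loxp 1 to 4. Every cKO and Hetero library lay below every Loxp library, as for 0.721% of all genes in cKO and 5.77% in Hetero. Dusp6 was among the genes named for the smallest p in cKO against Loxp within its list. The fitted log2 fold change of Dusp6 was -0.41 (SE 0.12, adjusted p = 1) in cKO and -0.56 (SE 0.16, adjusted p = 1) in Hetero, each against Loxp, by edgeR. Dusp5, another ERK phosphatase, Spry2, a Sprouty inhibitor of receptor signalling, and Dusp1, a phosphatase of several MAP kinases, had log2 fold changes of -0.62, -0.35 and -0.41 in cKO and -0.69, -0.42 and -1.02 in Hetero. Dusp1 in cKO rested on Loxp 4 and was at -0.075 without it, while all 6 genes of the list still had lower fitted levels, with a median of -0.28. The lists were chosen with earlier results of these libraries known, so their counts are not independent evidence of a direction.

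**Figure D5:**
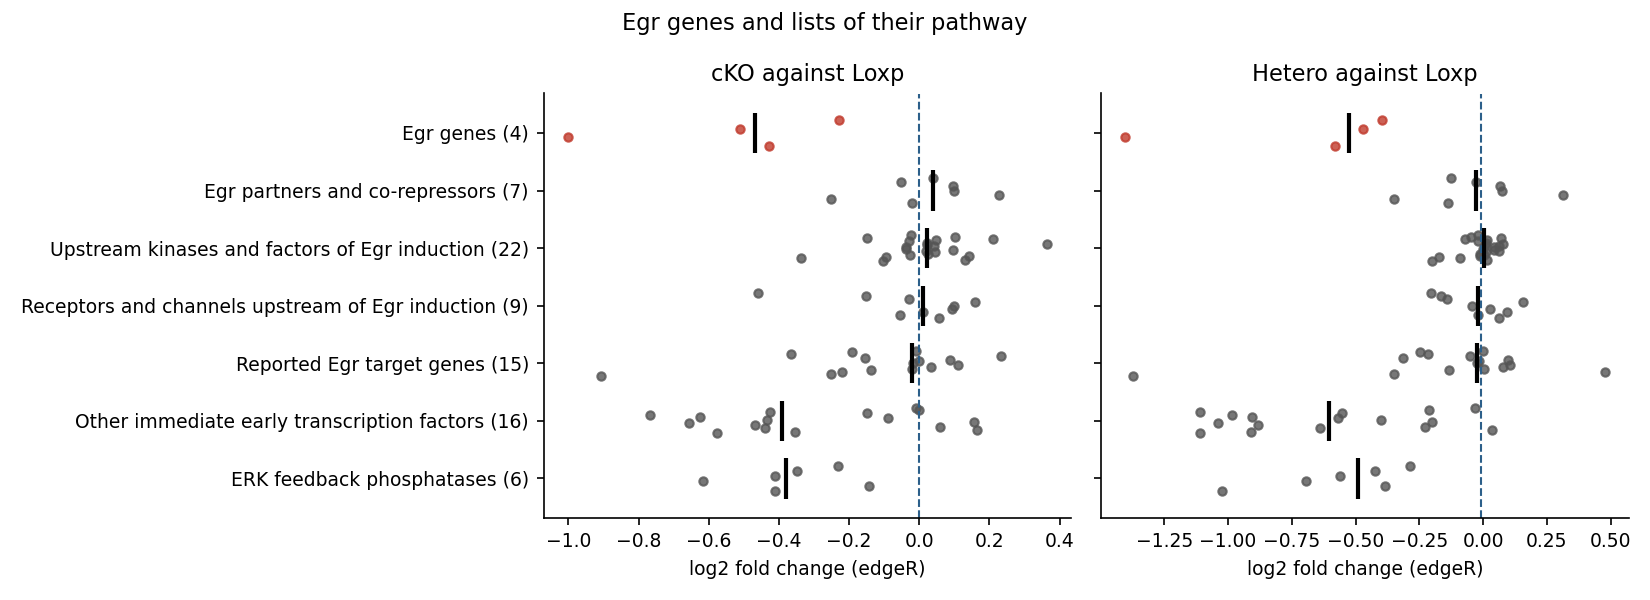
Log2 fold changes (edgeR) of the 4 Egr genes (red) and of the tested members of 6 pathway lists (grey, number in brackets) in cKO against Loxp (left) and Hetero against Loxp (right); black bars are list medians and the dashed line is the median of all genes tested. The immediate early factors and ERK feedback genes lie mostly below 0, with medians of -0.39 and -0.38 in cKO, and the other 4 lists have medians between -0.02 and 0.04 in cKO.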

How the data were processed

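The deposited table, per the file headers, holds read counts and FPKM for each of 10 libraries and the authors' log2 fold changes and p-values. The submitters' processing notes name featureCounts 1.5.0-p3 for the counts and the mm10 build. The aligner, annotation, strand setting and authors' test were not given in the sources used here. Libraries were made from 3 µg of RNA each, per the labels' protocols. The deposited counts were analysed with edgeR 4.0.16 (TMM normalisation, filterByExpr with a minimum count of 10, quasi-likelihood test over all 10 libraries, Benjamini-Hochberg adjustment over 18455 genes). The same fit was also run on counts simulated from the means and spread of these libraries, with changes set in cKO only. The simulated libraries had no tie between equal replicate numbers, and nothing about the real comparisons is read from that run. CPM are TMM-normalised. Log2 CPM used a prior count of 2. The deposited FPKM of the authors were used as levels per length. DESeq2 1.42.0 and limma 3.58.1 were alternatives, with R 4.3.3. Gene positions came from GENCODE M21 (52403 of 52636 IDs matched).

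The members and lists were chosen with earlier results of these data known. Named were the 4 Egr genes, Rxra, Neurod6, Nab1, Nab2 and Arc, up to 4 genes of each other pathway list with the smallest p in cKO against Loxp, and the 3 genes nearest to each Egr gene in profile. Marker lists served to check the tissue.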

Additional observations from a re-analysis of the deposited data

Results flagged for a closer look

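In 2 of the 18 sets of values checked for a far library (groups of 4 libraries), 1 library lay far from the other 3 by Dixon's test at the 95% level. Both were Loxp 2, at 208 CPM for Egr3 and 95.01 CPM for Egr4, below the other Loxp libraries. Chance gives such a gap in about 1 of 20 sets, and sets that share the same libraries are not independent. The values of Egr3 and Egr4 are also among those used to choose the genes. The 2 gaps are therefore a description, and nothing is concluded about Loxp 2 from them. Loxp 2 also had the low striatal marker sum of 229 CPM, shared with cKO 2, whose Egr4 level of 154 CPM was the highest in cKO.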

How the results depend on the processing

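The log2 fold changes of the 4 Egr genes were below 0 in cKO and in Hetero against Loxp under every alternative run. In cKO against Loxp, leaving out 1 library gave -0.55 to -0.33 for Egr1, -1.18 to -0.83 for Egr2, -0.65 to -0.44 for Egr3 and -0.41 to -0.11 for Egr4. In Hetero against Loxp it gave -0.68 to -0.49, -1.71 to -1.14, -0.57 to -0.38 and -0.57 to -0.30, in the same gene order, and without both Hetero 2 and Loxp 4 Egr2 was at -0.97. In cKO against Hetero, Egr1 ranged from 0.02 to 0.26, Egr2 from 0.14 to 0.71 and Egr4 from 0.07 to 0.29, and Egr3 from -0.19 to 0.05, with values of 0.002, 0.03 and 0.052 without cKO 2, cKO 4 and Hetero 1.

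The number of genes called was 0 in all 3 comparisons by edgeR. Without the low-count filter, 32197 genes were tested. Of these, 32 were called in cKO against Loxp, with Egr2 and Egr3 among them. In Hetero against Loxp 68 were called, with Egr1 and Egr2 among them, and in cKO against Hetero 39. The cause was not tested. DESeq2 called 2, 17 and 3 genes in the same order, and on all genes with a count, an alternative chosen after seeing the data, 0, 20 and 3. Leaving out 1 library gave 0 to 1, 0 to 15 and 0 to 14 calls; the highest came without cKO 2, Hetero 1 and Hetero 1, and with 1 Hetero library left, that library is assumed to vary like the other groups. Leaving out 1 library for the other named genes, the lists and the counts without overlap was also chosen after seeing the data. Depth limits Egr2 most, with 210 reads in its lowest library.

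The replicate numbers were checked for pairing by the correlation of deviations from group means between cKO and Loxp libraries of the same number. It was 0.0952, 0.199, 0.0419 and 0.322 for numbers 1 to 4. The numbers were to be taken as pairs only if every correlation was over 0.1, and numbers 1 and 3 fell short. The main fit therefore used no pairing. Each of the 4 cKO libraries still correlated best with the Loxp library of its own number, so a pairing is not excluded. With a replicate block, 1 gene was called in cKO against Loxp and 1 in Hetero against Loxp, Arc in each, at -0.88 (edgeR adjusted p = 0.00659) and -0.997 (adjusted p = 0.0428). Egr1 to Egr4 were then at -0.44, -0.97, -0.52 and -0.21 in cKO and at -0.34, -1.16, -0.36 and -0.26 in Hetero, so that Egr1 and Egr4 in Hetero moved by over 1.5 times, and Egr1 in cKO against Hetero turned to -0.10.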
